A study of Homo sapiens with 4 samples.

Results

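The 9 genes described here each had 3 or fewer reads in the library of unselected MDA-MB-231 cells (Bulk) and 40 or more reads in each of 3 libraries of slow-cycling cells. They are MOV10L1, IL21R, PYY, HAPLN2, PPIL6, SMIM10L2A, C5AR1, LINC00173 and RPLP0P2. The 9 genes were selected on these read counts from a table of 58735 genes, so the difference from Bulk is the rule that found them and not a finding. In all, 12 genes of the table met the same read thresholds, and the 3 outside the set were SLC16A1, INHBE and AL022322.1.

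MDA-MB-231 is an established human triple-negative breast cancer line. All 4 populations carried the TetOn-H2BeGFP transgene, a histone H2B-eGFP fusion switched on by doxycycline. Doxycycline was given to all of them at 5 μg/ml over 3 days, Claret and Violet dyes were added, and the labels then thinned out with division over a chase of 12 days. The Claret, eGFP and Violet libraries came from the 1% of cells that had retained most of that label, sorted separately, and the Bulk library came from cells sorted with no fluorescence gate. Each population gave 1 library, so no value below has a replicate check, and a test on reads compares 2 libraries and not 2 conditions. Because 1 gate was used per library, the retained label and the library cannot be told apart. In every sample the treatment field of the labels names another sort than the title. Titles were followed throughout, and the names of the table's columns are those of the titles.

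The libraries held 15508179 to 16976909 counted reads, and 3 reads, the most that a count of 0 allows, corresponded to 0.177 to 0.193 CPM, reads relative to the library total. The 5 genes known to be high in this line (VIM, CD44, EGFR, CAV1 and AXL) summed to 3128 to 3482 CPM. Of 5 epithelial and receptor genes listed as low in this line, ESR1 had 3 to 7 reads, CDH1 0 to 3 and PGR 0 in all libraries, but EPCAM had 28 to 61 and ERBB2 1415 to 1542. Mitochondrial genes took 4.18% of the reads in Bulk and 5.06% to 5.48% in the slow-cycling libraries, and the part of this difference in the results was not tested.

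The 9 genes are known for different roles, and in the body most are known from other tissues than breast epithelium. Whether any of them share an annotated pathway was not tested. MOV10L1 is an RNA helicase of male germ cells that feeds precursor RNA into the piRNA pathway, a defence against transposons. IL21R is the lymphocyte receptor for interleukin-21 and signals with the common gamma chain through JAK kinases. PYY is a gut hormone of enteroendocrine cells that acts on NPY receptors. HAPLN2 is a link protein that fastens hyaluronan to proteoglycans at nodes of myelinated axons. C5AR1 is the receptor of myeloid cells for the complement fragment C5a. PPIL6 is a divergent member of the cyclophilins, the family of peptidyl-prolyl isomerases. SMIM10L2A is predicted to encode a small membrane protein, LINC00173 is a long non-coding RNA, and RPLP0P2 is a pseudogene of the ribosomal stalk protein RPLP0.

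The title of the series names AP-1, the FOS and JUN dimer, so the promoters of the set were searched for its site and for 3 others on both strands. RefSeq promoter windows (build GRCh38.p14, 250 bases before to 50 after a start) were matched for 8 of the 9 genes, 11 windows in all. The AP-1 letters TGANTCA were found in 1 of the 11 windows, at PYY, and in 7.71% of all 35116 windows. The CRE letters TGACGTCA were found in 1, at MOV10L1, against 1.85% of all windows. The ATF4-CEBP composite letters TGATGNAA were found in 1, at IL21R, against 3.62% of all windows. The E-box CACGTG was in none of the 11 and in 7.26% of all windows. In these windows none of the 4 motifs was found at more than 1 gene of the set. The windows do not cover every annotated start, since GENCODE lists 9 transcript starts for MOV10L1 and 6 for PPIL6. Those of LINC00173 overlap almost fully. A match here is a match of letters and not a bound site. The 3 matched stretches are printed because no others were found, with the motif in capitals.

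PYY (chr17:44004484-44004531, minus strand): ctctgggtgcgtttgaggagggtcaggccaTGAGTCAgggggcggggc
MOV10L1 (chr22:50089850-50089898, plus strand): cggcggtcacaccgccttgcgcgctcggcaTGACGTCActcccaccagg
IL21R (chr16:27427123-27427190, plus strand): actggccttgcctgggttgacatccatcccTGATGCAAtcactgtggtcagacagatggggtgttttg

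The AP-1 match of PYY starts 56 bases before the RefSeq start, the CRE match of MOV10L1 starts 126 bases before it, and the composite match of IL21R 118 bases before it. The PYY match lies between the start of PYY at 44004469 and that of the neighbouring gene NAGS at 44004546, on the opposite strand. It cannot be assigned to either gene from its position. The other PYY window (chr17:43953891-43954190) held none of these motifs. The MOV10L1 match lies within an exon of the GENCODE annotation, 1 base after a transcript start. Base composition did not unite the promoters either. CpG counts per window ran from 2 at IL21R and 5 at HAPLN2 to 44 at MOV10L1 and 45 in one of the PPIL6 windows, around a median of 14 over all promoters.

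The level of each gene in each library is given next, by role, with coordinates on GRCh38. In bulk RNA, a larger share of cells with the transcript and more transcript per cell cannot be told apart. Fold values are ratios of reads scaled by TMM, which corrects for library size and composition, with 95% exact intervals that cover counting error only. Where Bulk had 0 reads the fold was taken against a floor of 3 reads in that library and is written as at least that size. The lower limit of the 95% exact interval, which also counts the error of the slow-cycling reads, is given beside it and is smaller. These values are descriptions of what the selection used and carry no test.

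Among the receptors and the secreted ligand, IL21R (ENSG00000103522, chr16:27402162-27452042, protein coding) had 0 reads in Bulk, against 68 in Claret, 68 in eGFP and 52 in Violet. All 3 slow-cycling libraries lay far above Bulk, at least 21.0-fold higher in Claret, 22.5-fold in eGFP and 17.3-fold in Violet against the floor, with 95% lower limits of 16.6, 17.8 and 13.6. C5AR1 (ENSG00000197405, chr19:47290023-47322066, protein coding) had 2 reads in Bulk, against 64 in Claret, 42 in eGFP and 42 in Violet. Claret was the highest, and the 2 Bulk reads left wide intervals around 29.7-fold (7.89 to 250.5) in Claret, 20.8-fold (5.42 to 178) in eGFP and 21.0-fold (5.47 to 179) in Violet. PYY (ENSG00000131096, chr17:43952738-44004469, minus strand, protein coding) had 1 read in Bulk, against 88 in Claret, 83 in eGFP and 63 in Violet. Its ratios were the largest among the 6 genes with reads in Bulk, 81.7 in Claret (14.3 to 3261), 82.3 in eGFP (14.4 to 3288) and 63.0 in Violet (10.9 to 2529), although its intervals overlap those of the other 5. The 3 genes with 0 reads in Bulk have bounds only and cannot be ranked against it.

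Among the intracellular and matrix proteins, MOV10L1 (ENSG00000073146, chr22:50089879-50161690, protein coding) had 0 reads in Bulk, against 108 in Claret, 56 in eGFP and 75 in Violet. This was the widest spread among the slow-cycling libraries in the set, with levels at least 33.4-fold, 18.5-fold and 25.0-fold higher than the floor in Bulk and 95% lower limits of 26.7, 14.6 and 19.9. HAPLN2 (ENSG00000132702, chr1:156619294-156625725, protein coding) had 2, 67, 56 and 48 reads in Bulk, Claret, eGFP and Violet, which gave 31.1-fold (8.28 to 262), 27.8-fold (7.33 to 235) and 24.0-fold (6.30 to 204). PPIL6 (ENSG00000185250, chr6:109390215-109441171, minus strand, protein coding) had 1, 49, 58 and 50 reads in the same order. The single Bulk read set its ratios of 45.5 (7.79 to 1832), 57.5 (9.92 to 2310) and 50.04 (8.58 to 2015). SMIM10L2A (ENSG00000178947, chrX:135421943-135428074, protein coding) sat at the edge of the rule, with 3 reads in Bulk, against 66 in Claret, 62 in eGFP and 43 in Violet. Its ratios were the smallest of those with reads in Bulk, 20.4 (6.69 to 102), 20.5 (6.69 to 102) and 14.3 (4.59 to 72.3).

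The 2 genes without an annotated protein product were held by the rule to the same limit of 3 reads in Bulk as the coding genes. LINC00173 (ENSG00000196668, chr12:116533422-116536518, annotated as a processed transcript) had 1 read in Bulk, against 62 in Claret, 65 in eGFP and 62 in Violet. This was the most even gene of the set, with a highest CPM 1.12 times the lowest. Its ratios to Bulk were 57.5 (9.95 to 2309), 64.4 (11.2 to 2584) and 62.05 (10.7 to 2490). RPLP0P2 (ENSG00000243742, chr11:61615036-61639449, a transcribed processed pseudogene) had 0, 57, 58 and 41 reads in Bulk, Claret, eGFP and Violet, at least 17.6-fold, 19.2-fold and 13.7-fold higher than the floor in Bulk, with 95% lower limits of 13.9, 15.1 and 10.6. Its parent RPLP0 had 37814, 51406, 45212 and 42254 reads, and 13.4% of the 31-base stretches of RPLP0P2 transcripts also occur in another gene, 2.68% in RPLP0. How reads that fit several genes were counted is not given in the sources used here, so the pseudogene's count is uncertain.

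**Figure D1:**
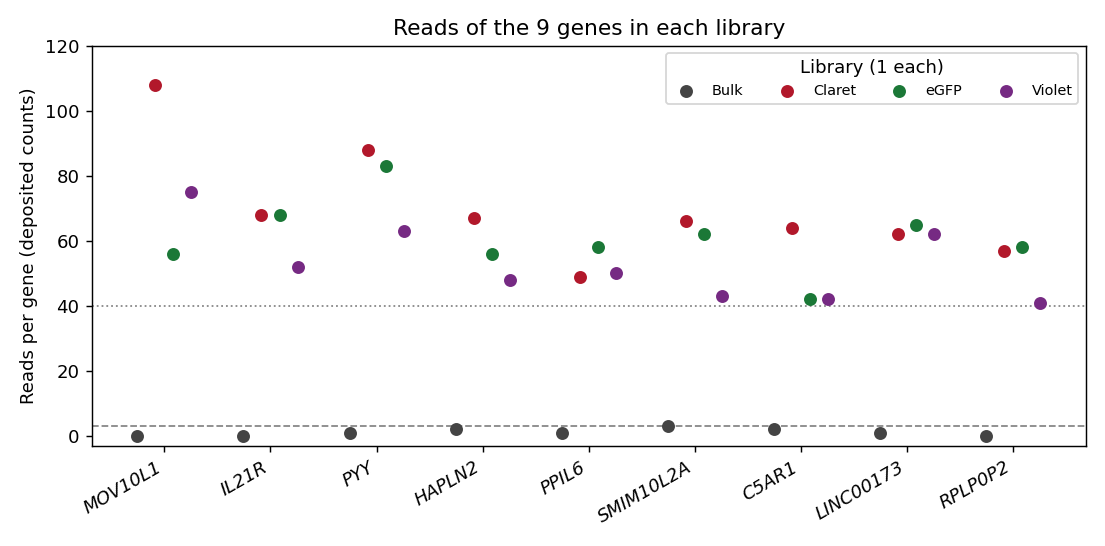
Reads counted for each of the 9 genes (vertical) in the Bulk, Claret, eGFP and Violet libraries, 1 library each, so the points carry no replicate error. Bulk points lie at 0 to 3 reads and slow-cycling points at 41 to 108, which the selection fixed.

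The 9 genes together held 10 reads in Bulk, against 629 in Claret, 548 in eGFP and 476 in Violet. All 9 passed the filter on low values, a mean of at least 1 CPM, but they did so through the slow-cycling libraries, where the rule had placed them. By the call used for all genes below, all 9 were higher in the 3 slow-cycling libraries, as were 1238 of the 14585 genes that passed the filter (8.49%), and nothing is read from the count of members because the rule used that contrast. The mirror of the rule, 40 or more reads in Bulk and 3 or fewer in each slow-cycling library, was met by 1 gene, NSFP1, with 217, 3, 2 and 2 reads.

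Levels between genes were compared per length, in FPKM (reads per gene length and library total) as the authors deposited them, as the mean ± SD of the 3 slow-cycling libraries. PYY was highest at 4.04 ± 0.619, with 4.39 in Claret, 4.40 in eGFP and 3.32 in Violet. LINC00173 followed at 1.87 ± 0.100 and HAPLN2 at 1.55 ± 0.214, then C5AR1 at 1.02 ± 0.225 and RPLP0P2 at 0.814 ± 0.143. PPIL6 at 0.716 ± 0.0849, MOV10L1 at 0.705 ± 0.209, IL21R at 0.701 ± 0.0969 and SMIM10L2A at 0.666 ± 0.133 closed the order. From C5AR1 down, no gene differed from the next beyond their SDs, and LINC00173 stood above HAPLN2 by about the sum of theirs. The 3 libraries are not replicates, so this spread holds any difference between the sorted populations as well.

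At the edge of the rule the read counts ran on without a gap. Just inside were SMIM10L2A with 3 reads in Bulk, RPLP0P2 with 41 in Violet and C5AR1 with 42 in eGFP and in Violet. Just outside, EGR2, an immediate-early transcription factor, had 4, 92, 81 and 75 reads in Bulk, Claret, eGFP and Violet. ACRBP with 2, 51, 49 and 39 reads and SCN4A with 2, 42, 52 and 39 failed by a single Violet read. Of the 3 genes that met the rule outside the set, AL022322.1 lay nearest to the members' level, with 1, 66, 47 and 64 reads. SLC16A1, the lactate transporter MCT1, had 0, 372, 331 and 238 reads, and INHBE, an inhibin subunit, had 1, 620, 615 and 431, both well above the 9 genes in the slow-cycling libraries.

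The slow-cycling libraries were next compared with each other, a contrast that the rule also limited, since it asked for 40 or more reads in each of them. A gene was called when a two-sided exact conditional binomial test on the reads of 2 libraries gave an adjusted p (Benjamini-Hochberg over 14585 genes) under 0.05 with a log2 ratio of at least 1 in size. Of 27 tests, 9 genes in 3 pairs, 0 were called, and 1 had an unadjusted p under 0.05. Over all genes the calls came to 0.761% between Claret and eGFP, 0.802% between Claret and Violet and 1.01% between eGFP and Violet. Those genes had no floor of 40 reads. At 41 to 108 reads, that floor left most of the 9 genes little room for a log2 ratio of 1, so nothing is read from the absence of calls. The 1 test with an unadjusted p under 0.05 was MOV10L1, with 108 reads in Claret against 56 in eGFP. Its ratio was 1.81 (1.30 to 2.54), with adjusted p = 0.00505 by the exact test, under the size needed for a call. Against Violet, with 75 reads, MOV10L1 in Claret had a ratio of 1.34 (0.985 to 1.82) and adjusted p = 0.186 by the same exact test.

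The other 26 intervals included 1, and over all 27 the bounds ran from 0.514 to 2.54. An interval that includes 1 does not show that the levels are alike. Violet was the lowest of the 3 by CPM for 5 genes and the highest for 0. Claret was the highest for 3 genes and eGFP for 6. C5AR1 had the next largest ratio of Claret to eGFP, 1.43 (0.952 to 2.16).

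**Figure D2:**
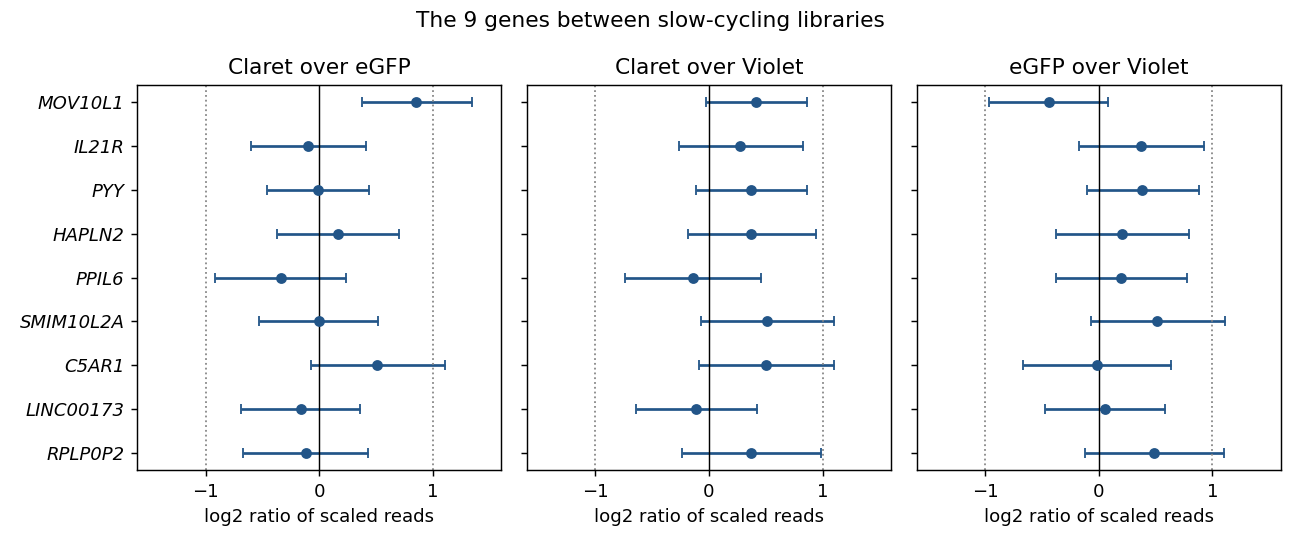
Log2 ratios of TMM-scaled reads between pairs of slow-cycling libraries (horizontal) for the 9 genes (vertical), with 95% exact intervals as bars, 1 library each. Only the bar of MOV10L1 for Claret over eGFP, at 0.85 (0.37 to 1.34), lies clear of 0.

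The genes around the 9 loci were read next. The 9 genes lie on 9 different chromosomes, so the set is not a cluster. Within 100 kb of their spans, with upstream and downstream taken along the member's own strand, and without overlapping genes, the table lists 85 genes, of which 44 passed the filter. Of these, 9 (20.5%) were called higher than Bulk in all 3 slow-cycling libraries, beside 8.49% of all genes, and 2 (4.55%) were called lower in all 3, beside 4.93% of all genes (719). The other 33 were neither. The median of their mean log2 ratios was 0.08, against -0.01 over all genes. Within 500 kb the share called higher was 16.3% (25 of 153). Of the 9 genes, 5 had a neighbour called higher within 100 kb and 4 had none, and both calls lower lay at HAPLN2.

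The HAPLN2 locus on chromosome 1 held the most called neighbours, 4 higher and 2 lower of 10 tested. On its downstream side, BCAN, the brain proteoglycan brevican, which like HAPLN2 binds hyaluronan, starts 15665 bases away and had 16 reads in Bulk, against 45 in Claret, 61 in eGFP and 49 in Violet. These are log2 ratios of 1.28 (0.53 to 2.31), 1.80 (1.11 to 2.81) and 1.51 (0.78 to 2.53), with every slow-cycling library above Bulk. The long non-coding RNA AL365181.2, 12058 bases downstream, had 26, 292, 299 and 326 reads (log2 ratios 3.29, 3.42 and 3.55). Beyond it, the antisense genes AL365181.3 (57, 369, 352 and 432 reads) and AL590666.2 (2, 26, 32 and 36 reads) were also called higher.

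AL365181.3 shares 3222 bases of its span with BCAN and AL590666.2 shares 13026, on the opposite strand. Whether the counting used strand is not given in the sources used here, so reads of these 3 genes cannot be told apart with certainty and they may not be 3 independent changes. On the upstream side of HAPLN2, 2 genes were called lower. GPATCH4, a nucleolar G-patch protein 17798 bases upstream, had 1048, 445, 400 and 418 reads (log2 ratios -1.34, -1.40 and -1.32). IQGAP3, a scaffold protein tied to proliferation, 46690 bases upstream, had 3645, 1404, 1067 and 1336 reads (-1.48, -1.78 and -1.45). Without the neighbours of HAPLN2, 5 of 34 genes (14.7%) were called higher and 0 lower.

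At C5AR1 on chromosome 19, BBC3, the pro-apoptotic BH3-only protein PUMA, lies 57257 bases upstream and had 53 reads in Bulk, against 266 in Claret, 362 in eGFP and 254 in Violet. Its log2 ratios were 2.18 (1.79 to 2.67), 2.71 (2.34 to 3.20) and 2.22 (1.83 to 2.72). MEIS3, a homeobox factor 81058 bases downstream, had 76, 460, 435 and 383 reads (2.46, 2.47 and 2.31). The genes nearest to C5AR1 were not called: INAFM1, 14316 bases upstream, had 95, 161, 146 and 160 reads and DHX34, an RNA helicase 27215 bases downstream, had 973, 890, 818 and 822. SAE1, a subunit of the SUMO-activating enzyme 79387 bases upstream, had 2833, 1594, 1370 and 1379 (-0.94, -1.06 and -1.04), so that only Claret missed the size of a call.

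At PYY on chromosome 17, HDAC5, a class IIa histone deacetylase 72277 bases upstream, had 529, 1679, 1794 and 1528 reads and was called higher (log2 ratios 1.55, 1.75 and 1.53). NAGS, a urea cycle enzyme whose span begins 77 bases from that of PYY, had 315, 609, 535 and 484 reads (0.84, 0.75 and 0.62), below the size of a call. MPP2, a scaffold of the membrane-associated guanylate kinase family 43027 bases downstream, had 380, 359, 348 and 318. Next to LINC00173 on chromosome 12, MAP1LC3B2, an LC3 family gene of autophagy 11587 bases downstream, had 64, 207, 217 and 199 reads (1.56, 1.72 and 1.61) and was the only neighbour tested within 100 kb. At RPLP0P2 on chromosome 11, SYT7, a calcium sensor of exocytosis 33888 bases upstream, had 7, 75, 105 and 64 reads (3.00, 3.57 and 2.88), while DAGLA, the 2-arachidonoylglycerol synthase 40984 bases downstream, had 442, 352, 257 and 288 and was not called.

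At the other 4 loci no neighbour within 100 kb was called in all 3 libraries. Downstream of MOV10L1 by 9041 bases, PANX2, a pannexin channel gene, had 426, 884, 1139 and 867 reads (log2 ratios 0.94, 1.40 and 1.02), so that only Claret missed the size of a call. At PPIL6, MICAL1, an actin-oxidizing enzyme 2891 bases upstream, had 1232, 2629, 2458 and 2438 reads (0.98 in each), just under that size. At IL21R, IL4R, another cytokine receptor 37384 bases upstream, had 1296, 1209, 1181 and 1245 reads, and GTF3C1, a subunit of transcription factor TFIIIC 7513 bases downstream, had 2554, 2110, 2105 and 2020. Neither was called, with IL21R between them at 0 reads in Bulk and 52 or more in the others. SMIM10L2A had 3 tested neighbours, and the zinc finger gene ZNF449, 58791 bases upstream, had 134, 207, 126 and 190 reads, while INTS6L, of the Integrator family, 92569 bases downstream, had 358, 222, 232 and 263. The nearest tested genes on the remaining sides were not called either. PIM3, a kinase gene 125799 bases upstream of MOV10L1, had 1709, 1861, 1657 and 1718 reads, CD164, a sialomucin gene 7403 bases downstream of PPIL6, had 2238, 2650, 2326 and 2644, and MED13L, a Mediator subunit gene 255703 bases upstream of LINC00173, had 1489, 1251, 1303 and 1521.

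Genes that overlap a member were set apart because they may share reads. AL034546.1 overlaps MOV10L1 on the same strand and had 0 reads in every library. IL21R-AS1 overlaps IL21R and holds 22.7% of the 31-base stretches of its transcripts, yet had 1, 1, 2 and 2 reads. SMPD2, a sphingomyelinase gene, overlaps PPIL6 and shares 8.26% of its stretches. It had 132, 130, 113 and 78 reads (log2 ratios -0.13, -0.23 and -0.74), none of them above 0. SMIM10L2B shares 9.17% of the stretches of SMIM10L2A, so part of the reads of either could belong to the other. For C5AR1, 10.5% of the stretches occur in other genes, and counting every other gene the share was 24.8% for IL21R and 16.7% for PPIL6. HAPLN2 shared no 31-base stretch with any other gene.

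**Figure D3:**
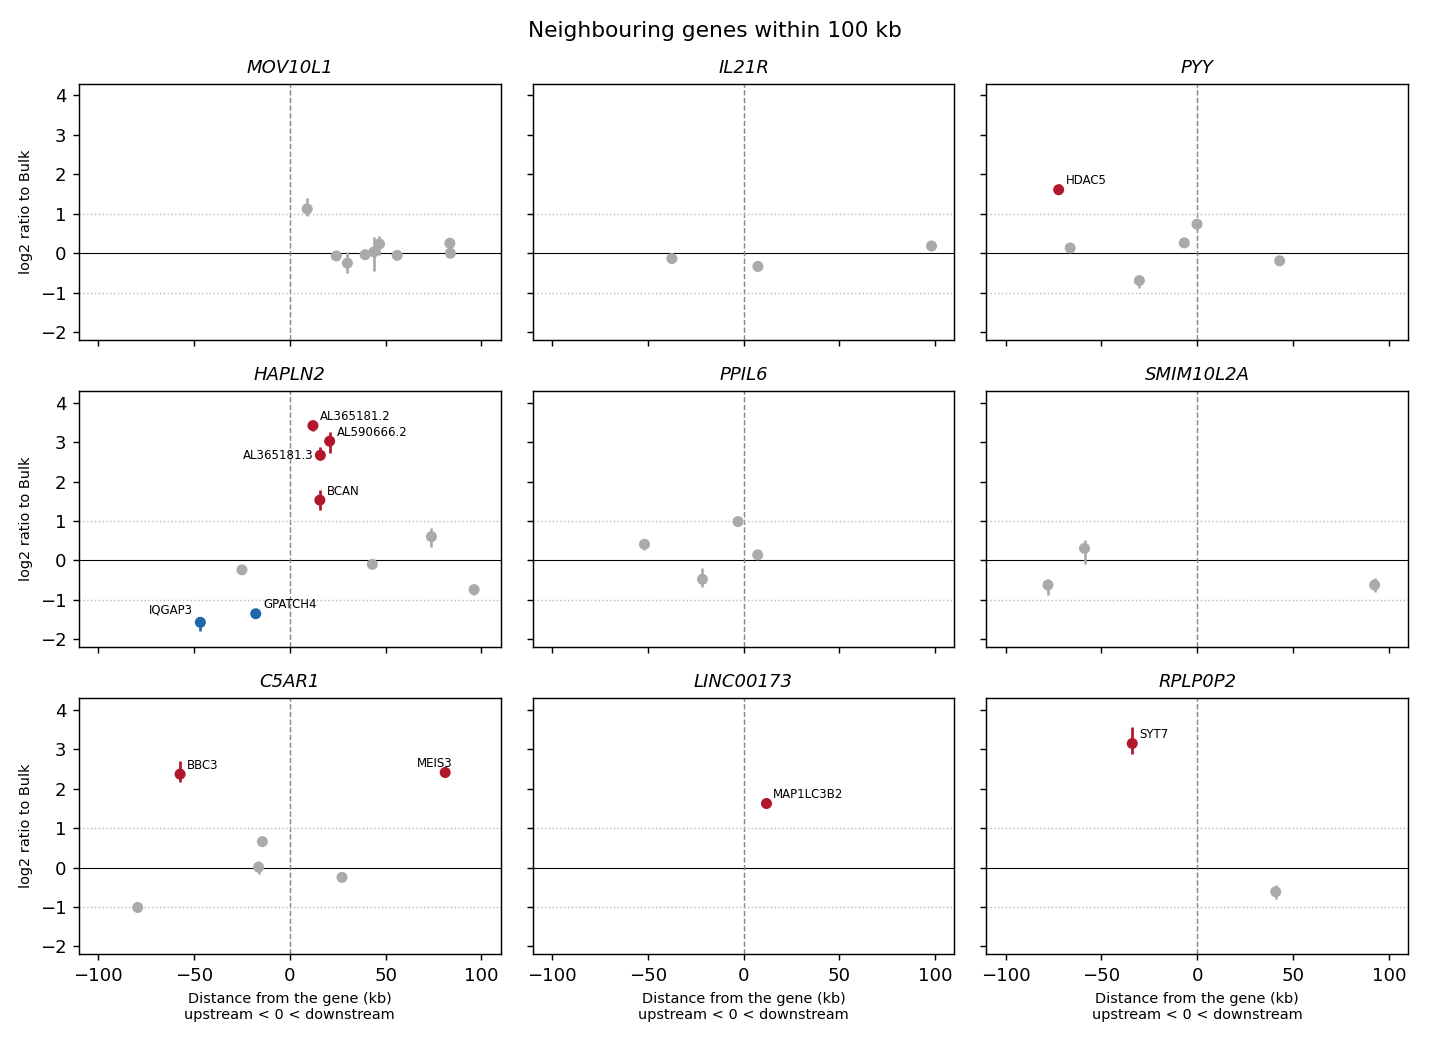
Log2 ratio to Bulk (vertical, mean of 3 slow-cycling libraries, with the line spanning their range) of each tested gene within 100 kb of a member, by distance from the member's span (horizontal), 1 panel per member. Red points are called higher in all 3, blue points lower and grey points neither, and HAPLN2 holds both red and blue points, BCAN and AL365181.2 on one side and IQGAP3 and GPATCH4 on the other.

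Relatives and partners of the 9 genes were taken from 8 lists by family or pathway, with the members left out. Of 93 genes listed, 53 passed the filter, and 18 had 0 reads in all 4 libraries. In all 3 slow-cycling libraries 4 of the 53 (7.55%) were called higher, beside 8.49% of all genes, and 4 (7.55%) lower, beside 4.93%. The share called higher among relatives was close to that of all genes.

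In the list of common gamma chain receptors, JAK3, the kinase that binds the common gamma chain, was the 1 call of 10 genes tested. It had 24 reads in Bulk, against 240 in Claret, 296 in eGFP and 238 in Violet, log2 ratios of 3.11 (2.61 to 3.88), 3.51 (3.01 to 4.28) and 3.21 (2.70 to 3.98), all 3 far above Bulk. The partner chain IL2RG had 0, 4, 1 and 0 reads and the ligand IL21 had 0 in all 4, each at or near the floor. The median log2 ratio of the list was 0.10, 0.14 and 0.03 in Claret, eGFP and Violet.

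For C5AR1, 1 of 6 complement genes tested was called, CFB, a protease of the alternative pathway, with 4, 25, 26 and 35 reads. Its log2 ratios were 2.08 (1.00 to 4.52), 2.22 (1.16 to 4.67) and 2.63 (1.65 to 5.08). C5, the source of the ligand of C5AR1, had 119, 158, 115 and 130 reads and was not called. The other anaphylatoxin receptors C5AR2 (0, 3, 5 and 4 reads) and C3AR1 (14, 7, 9 and 13) had few reads in every library.

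For HAPLN2, 2 of 6 matrix genes were called higher, BCAN, which is also its neighbour, and TNC, the matrix glycoprotein tenascin-C, with 2500, 6808, 6384 and 5429 reads (1.34, 1.34 and 1.12). The list had the highest median log2 ratios of the 8 in Claret and eGFP, 0.80 and 0.83, and 0.65 in Violet. The link protein HAPLN3 had 209, 476, 459 and 400 reads (1.07, 1.12 and 0.93) and missed the size of a call in Violet, HAPLN1 had 0 reads in all 4, and CD44, the hyaluronan receptor, had 5865, 6276, 6357 and 5303.

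The cyclophilins, the list of PPIL6, all passed the filter, with 0 of 16 called higher and 3 lower, and median log2 ratios of -0.19, -0.28 and -0.26. PPIF, the mitochondrial cyclophilin D, had 2181, 767, 706 and 706 reads (-1.61, -1.64 and -1.62). PPIH, of the spliceosome, had 304, 104, 111 and 106 (-1.64, -1.45 and -1.50), and PPIL1, also of the spliceosome, 1196, 634, 575 and 586 (-1.02, -1.07 and -1.03). PPIA, the main cyclophilin, had 28396, 15744, 13458 and 13597 reads (-0.96, -1.09 and -1.06), so that only Claret missed the size of a call.

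For MOV10L1, 1 of 8 piRNA pathway genes tested was called, MYBL1, the germ cell transcription factor A-MYB, and it was lower, with 851, 324, 287 and 318 reads (-1.50, -1.57 and -1.41). The paralog MOV10 had 2029, 1508, 1341 and 1639 reads and PIWIL4, an Argonaute protein that binds piRNA, 12, 12, 27 and 7. For PYY, 1 of 7 listed genes passed the filter, NPY1R, a receptor of the family, with 66, 67, 64 and 61 reads, and it was not called. DPP4, the protease that trims PYY, had 2, 9, 15 and 10. Of the relatives of SMIM10L2A, SMIM10L2B had 4, 20, 15 and 20 reads and did not pass the filter, SMIM10L1 had 428, 389, 341 and 332, and SMIM10 had 18, 27, 18 and 22. The 4 ribosomal stalk genes tested gave no call.

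Many markers of specialised cell types were at or near 0, with exceptions in the leukocyte, oligodendrocyte and multiciliated cell lists. All 8 enteroendocrine markers had fewer than 10 reads in every library, and their summed level was 0.451 to 0.624 CPM. All 7 germ cell markers were also under 10 reads, at 0.249 to 0.580 CPM. Of 12 leukocyte markers 8 were under 10 reads, CD3E and MS4A1 had 0 in all 4 and PTPRC had 0 to 2. The leukocyte sum was 50.5 CPM in Bulk and 111 to 137 in the slow-cycling libraries, mostly LCP1, with 731, 2104, 2109 and 1666 reads. The leukocyte markers CORO1A (47, 23, 21 and 24 reads) and CSF1R (21, 21, 16 and 16) were not higher in the slow-cycling libraries. Among the oligodendrocyte markers, MOG, MAG and MOBP were under 10 reads in every library, while the 2 abundant ones went opposite ways, MBP with 1249, 2760, 2783 and 2559 reads and CNP with 1986, 846, 801 and 774. Of 7 multiciliated cell markers only 2 were under 10 reads in every library, and 1 had 10 or more in every library. FOXJ1 had 0 in all 4 and RSPH1 had 0, 17, 16 and 13. The sum was 8.11 CPM in Bulk and 10.5 to 13.2 in the slow-cycling libraries, mostly from the 1 marker with 10 or more reads throughout. The part of these markers in the levels of the 9 genes was not tested.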

How the data were processed

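RNA was measured by sequencing in 4 libraries, 1 per population. The authors deposited read counts per gene for 58735 genes, raw whole numbers per the file headers, and FPKM values computed by them from those counts and gene lengths. The submitters' processing notes name HISAT2 2.0.5 and featureCounts 1.5.0-p3. Genome build, strand setting and the treatment of multiply matching reads are not given in the sources used here. Gene spans coincide with GENCODE 29 on GRCh38.

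Genes with a mean of at least 1 CPM over the 4 libraries were kept (14585). TMM factors came from edgeR 4.0.16 (R 4.3.3), and log2 ratios used a prior count of 2. With 1 library per group, edgeR's quasi-likelihood fit has no residual degrees of freedom. The reads of 2 libraries therefore entered an exact conditional binomial test, two-sided and adjusted by Benjamini-Hochberg. The test was checked on simulated reads that held counting error only, so the check cannot show its error rate between unreplicated libraries. A call needed an adjusted p under 0.05 and a log2 ratio of at least 1 in size, and a call in all 3 required the same direction in Claret, eGFP and Violet. Intervals are 95% Clopper-Pearson. Reads carry no molecular identifiers, so intervals and floors cover counting error only.

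The genes, lists, tests and alternatives were chosen with earlier results of these data known. Genes named are the members, overlapping genes, the nearest tested gene on each side within 500 kb, genes within 100 kb or in a family list called in all 3 libraries, fixed partners, and genes at the edge of or meeting the rule. Names outside that rule (EGR2, ACRBP, SCN4A, NSFP1 and marker genes with exceptional values) were chosen after their values were seen. Alternatives were other scalings, filters, windows, gene types, read thresholds, FPKM, groups from the treatment field, and, added after seeing the data, leaving out the neighbours of HAPLN2. Of the marker genes, 2 are not reported here by name.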

Additional observations from a re-analysis of the deposited data

How the results depend on the processing

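No paired analysis was possible because each population has 1 library. Library-size and DESeq2 1.42.0 scaling and no filter kept the direction and call of the 27 ratios of the 9 genes to Bulk and of the 11 called neighbours. Some other calls changed with library-size scaling. It gave 10 neighbours called higher, against 9 as reported, and 3 relatives called lower, against 4 as reported. Of all genes, 9.05% were then called higher and 4.68% lower. A filter at a mean of 10 CPM left none of the 9 genes, so it gave no value. On the log2(FPKM + 1) scale, which shrinks low genes, 3 of 9 passed the fold. With windows of 500 kb, 25 of 153 neighbours (16.3%) were called higher and 8 (5.23%) lower, beside 8.49% and 4.93% of all genes. Within 100 kb and without the neighbours of HAPLN2, 5 were called higher and 0 lower. The rule gave 12 genes, but 4 with 0 reads in Bulk, 50 with 20 or more reads in each slow-cycling library and 2 with 80 or more.

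With the groups of the treatment field in place of the titles, the library titled Violet becomes the un-gated one and Bulk becomes Claret. Then 0 genes met the rule, 0 of the 9 were called against the un-gated library in all 3, 18 of 27 comparisons among the other 3 were called, neighbours called higher and lower were 0 and 0, and relatives called were 0 and 0. The ratio for the library that field calls Claret fell below 1: MOV10L1 0.0400, IL21R 0.0576, PYY 0.0159, HAPLN2 0.0416, PPIL6 0.0200, SMIM10L2A 0.0697, C5AR1 0.0476, LINC00173 0.0161 and RPLP0P2 0.0731. Those of MOV10L1, IL21R and RPLP0P2, with 0 reads there, are upper bounds taken at 3 reads. For the library it calls Violet, MOV10L1 was 0.740 and C5AR1 0.991, and for the one it calls eGFP, PPIL6 was 0.909 and LINC00173 0.927. The results therefore rest on the titles. Depth limits the ratios to Bulk, where 0 to 3 reads leave bounds and wide intervals, and limits the comparison among slow-cycling libraries at 41 to 108 reads.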

Other observations

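Within 500 kb of the 9 genes, 25 of 153 tested genes (16.3%) were called higher in all 3 slow-cycling libraries, beside 8.49% of all genes. Called lower in all 3 were 8 (5.23%), close to the 4.93% of all genes. Both counts include the 9 and 2 within 100 kb. The following were named after their values were seen. ADM2, the peptide hormone adrenomedullin 2, lies 319866 bases downstream of MOV10L1 and had 108 reads in Bulk, against 1795 in Claret, 1577 in eGFP and 1540 in Violet (log2 ratios 3.92, 3.83 and 3.81). MIOX, an inositol oxygenase 325094 bases downstream of MOV10L1, had 8, 96, 86 and 49 reads in the same order. Downstream of RPLP0P2, FEN1, the flap endonuclease of DNA replication, had 3989, 576, 488 and 476 reads (-2.90, -3.04 and -3.06), and INCENP, a subunit of the chromosomal passenger complex, had 2895, 630, 519 and 656 (-2.30, -2.49 and -2.14). Genes called in each direction lay within 500 kb of MOV10L1, HAPLN2, PYY, C5AR1 and RPLP0P2.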
